A study of Mus musculus with 6 samples.

Results

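Cytokine mRNA decay factors are RNA-binding proteins and their partners that set how long the messages for inflammatory proteins last. Of 9 genes chosen by name for that role (Zfp36, Zfp36l1, Zfp36l2, Zc3h12a, Zc3h12c, Rc3h1, Elavl1, Btg1 and Btg2), all 9 were found among the 24421 gene entries of the count table, and all 9 had enough reads to be tested. Messenger RNA was sequenced from monocytes, phagocytes made in the bone marrow, obtained by sorting cells of B6 mice. The 3 GM-CSF libraries came from cells given 5 ng of granulocyte-macrophage colony-stimulating factor (GM-CSF, no volume stated), a cytokine that acts on myeloid cells, for 3 h. The 3 control libraries came from cells without it; one label calls them freshly isolated and another describes medium with or without the cytokine, so time in culture and GM-CSF cannot be told apart. No label gives the sex or age of the mice, or says that libraries of a group came from separate animals, and every p-value here reflects the spread among these libraries alone, which may be technical.

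Many cytokine messages carry AU-rich elements in their 3′ untranslated region. Tristetraprolin, the product of Zfp36, and its relatives ZFP36L1 and ZFP36L2 bind such elements through a pair of zinc fingers and bring in the CCR4-NOT complex, which removes the poly(A) tail. Regnase-1, the product of Zc3h12a, is an endonuclease that cuts stem-loops, its relative is encoded by Zc3h12c, and Roquin-1, the product of Rc3h1, binds stem-loops and recruits the decay machinery. HuR, the product of Elavl1, binds AU-rich elements too but is known for stabilising messages. BTG1 and BTG2 bind the deadenylase subunits of CCR4-NOT and promote deadenylation.

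The messages of the decay factors themselves differed in their AU-rich elements. In the longest protein-coding transcript of each gene (GENCODE M21 on GRCm38), the 3′ untranslated regions of Zfp36, Zfp36l1 and Zfp36l2 each held the 7-base core TATTTAT at 3 places, that of Elavl1 held 8, those of Zc3h12c and Rc3h1 held 2 each, and that of Btg2 held 1. Those of Zc3h12a and Btg1 held 0, but they held the shorter letters ATTTA at 3 and 11 places. Over 10813 tested genes with such a region, 29.7% held the core at least once and 69.2% held ATTTA. The region's length was 774 bases in Zfp36 and 1835, 1822 and 4218 bases in Zfp36l1, Zfp36l2 and Elavl1, against a median of 1112 bases. For the TTP family and Elavl1, a 30-base window with the most cores follows. Each is written 5′ to 3′ on the message strand with the core in capitals. They are shown because the family is known to bind these letters and because Elavl1 packs 5 overlapping or neighbouring copies into 1 window. The windows of Zfp36l1 and Zfp36l2 hold only 1 of their 3 cores each. These windows do not hold the longer letters TATTTATTT, which the region of each of these genes has at 1 place.
Zfp36 (chr7:28376962-28376991, minus strand): gggcccttTATTTATgacgacttTATTTAT
Zfp36l1 (chr12:80108421-80108450, minus strand): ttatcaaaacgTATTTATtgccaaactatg
Zfp36l2 (chr17:84184913-84184942, minus strand): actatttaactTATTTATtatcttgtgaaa
Elavl1 (chr8:4285777-4285806, minus strand): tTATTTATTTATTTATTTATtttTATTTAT
A match is a description of the letters and not a binding site shown in these cells.

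Reads in genes numbered 16643228 to 21468929 per GM-CSF library and 20782467 to 25232956 per control library. Levels are given as CPM, a gene's reads scaled to 1000000 reads in genes per library, and changes as the log2 fold change of GM-CSF over control with its standard error from edgeR's quasi-likelihood fit across all 11731 tested genes; p-values are adjusted by Benjamini-Hochberg over all of them, and a gene under 0.05 is said to have changed. The 10 monocyte markers were all detected, summing to 27781 to 30356 CPM in GM-CSF libraries and 59640 to 68667 CPM in control libraries, most of it from Lyz2. Single markers differed in direction: Cx3cr1 stood at 38.0 to 46.3 CPM in GM-CSF and 430 to 527 CPM in control libraries, Ccr2 at 494 to 552 CPM in GM-CSF and 1727 to 1963 CPM in control libraries, and Cd14 at 660 to 1126 CPM in GM-CSF and 37.1 to 44.7 CPM in control libraries. Summed neutrophil markers (11 genes) stood at 16125 to 20195 CPM in GM-CSF libraries and 27869 to 38354 CPM in control libraries. Of these, Elane, Mpo and Prtn3 overlapped between groups, and the rest were lower in each GM-CSF library. Ngp, for example, stood at 1924 to 2468 CPM in GM-CSF and 4545 to 6357 CPM in control libraries. The B cell markers (7 genes) stood at 34.7 to 43.3 CPM in GM-CSF and 62.1 to 71.5 CPM in control libraries. T and NK cell markers (7 genes, nearly all of the sum from Nkg7) stood at 168 to 194 CPM in GM-CSF and 176 to 233 CPM in control libraries. Basophil and mast cell markers (6 genes) stood at 14.4 to 26.6 CPM in GM-CSF and 6.25 to 15.4 CPM in control libraries. Of these, Gata2 stood at 7.87 to 14.2 CPM in GM-CSF and 0.198 to 0.722 CPM in control libraries. Ms4a2 stood at 1.43 to 2.34 CPM in GM-CSF and 0.722 to 1.15 CPM in control libraries. The markers Mcpt8, Prss34, Cpa3 and Fcer1a overlapped between groups. Those for plasmacytoid and dendritic cells (7 genes, most of the sum from Bst2) stood at 42.2 to 50.1 CPM in GM-CSF and 84.8 to 90.9 CPM in control libraries. Each of these markers had reads in at least 1 library. Of 7 erythroid markers, the 4 haemoglobin genes were at 0 and the sum was at most 0.834 CPM in GM-CSF and 2.29 CPM in control libraries. GM-CSF replicate 3 stood apart from the other GM-CSF libraries, with a correlation of log2 CPM of 0.980 and 0.983 with them, against 0.990 between those, and with the fewest genes detected (13378). Without it, 8 decay factors still rose and the Zfp36l2 call was lost. The part of these other cells in the results below was not tested, and in bulk RNA a change in the number of cells of a type and a change in the RNA of each cell cannot be told apart.

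Decay factor messages were mostly higher after GM-CSF. Of the 9 genes, 8 rose and 1, Zfp36l2, fell. Over all tested genes 64.0% changed, 32.8% higher and 31.2% lower; with upper quartile scaling, which lowered the median of all genes by 0.12, 3257 genes (27.8%) were higher and 4318 (36.8%) lower, against 3851 and 3660 with TMM. The median log2 fold change was 1.07 over the 9 genes and 0.01 over all tested genes. For the 8 that rose, each GM-CSF library was above each control library, which was the case for 34.9% of all tested genes; in either direction the groups did not overlap for 69.5%.

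**Figure D1:**
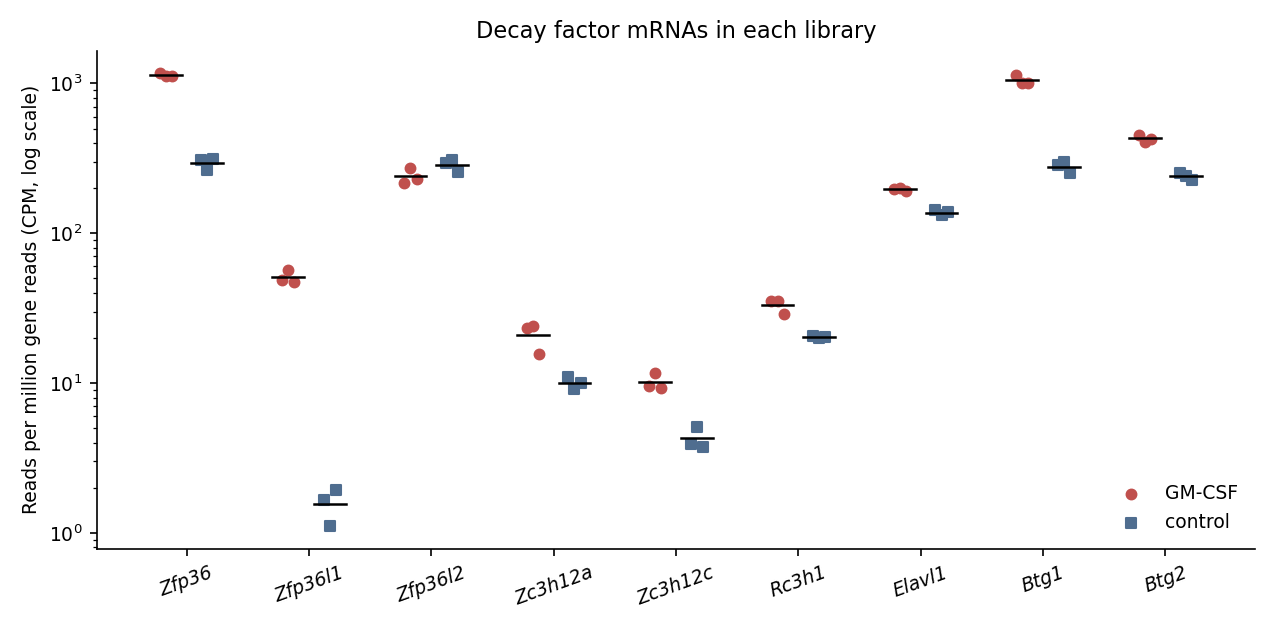
Level of each decay factor mRNA in each library, in CPM on a log axis; circles are the 3 GM-CSF libraries, squares the 3 control libraries and black lines group means. Zfp36l1 has the widest gap, with a mean of 50.9 CPM in GM-CSF libraries and 1.57 CPM in control libraries, and Zfp36l2 is the gene whose groups overlap.

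Zfp36l1, which encodes the TTP relative ZFP36L1, had the largest rise of the 9 genes. It had 819, 949 and 1008 reads in GM-CSF libraries (48.8, 57.0 and 47.0 CPM), against 40, 28 and 40 reads in control libraries (1.67, 1.11 and 1.92 CPM). All 3 control libraries were close to 0 and far below all 3 GM-CSF libraries. The mean was 50.9 ± 5.36 CPM in GM-CSF and 1.57 ± 0.417 CPM in control libraries (SD, n = 3 each), a 32.5-fold difference, and the log2 fold change of 5.04 ± 0.18 (edgeR adjusted p = 2.95e-09) ranked 121 from the top among the 11731 tested genes. Zfp36, which encodes tristetraprolin itself, had 1168, 1127 and 1128 CPM in GM-CSF libraries, against 307, 263 and 313 CPM in control libraries. The GM-CSF libraries lay close together, 3.88-fold above the control libraries on average (1141 ± 23.2 CPM in GM-CSF and 294 ± 26.9 CPM in control libraries; log2 fold change 1.96 ± 0.08, edgeR adjusted p = 1.15e-08).

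Zfp36l2, which encodes the other relative, moved little and downward. It had 217, 274 and 231 CPM in GM-CSF libraries, against 293, 307 and 258 CPM in control libraries. GM-CSF replicate 2 lay above control replicate 3, so the groups overlapped. The log2 fold change was -0.24 ± 0.10 with an edgeR adjusted p of 0.0463, and the call was lost without GM-CSF replicate 1 (-0.18) or 3 (-0.21) or control replicate 1 (-0.22) or 2 (-0.19), the adjusted p ranging from 0.00653 to 0.159 over the alternatives.

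Since the 3 TTP family genes share a function, their balance within each library was compared as well, in reads per kilobase of merged exons. Zfp36 made up 81.2%, 77.1% and 80.02% of the family sum in GM-CSF libraries, against 51.4%, 46.5% and 55.0% in control libraries. Zfp36l2 made up 14.8%, 18.4% and 16.1% in GM-CSF libraries, against 48.2%, 53.2% and 44.6% in control libraries, and Zfp36l1 4.11% ± 0.361 in GM-CSF and 0.315% ± 0.0830 in control libraries (SD, n = 3 each). By merged exons, Zfp36 and Zfp36l2 were therefore near parity in control libraries, while Zfp36 was the main family message in GM-CSF libraries. The groups did not overlap for any of the 3 shares; the exact two-sided permutation test gave p = 0.1 for each, the smallest value that 3 against 3 libraries allow. With the length of the longest transcript in place of merged exons, the share of Zfp36 differed between groups by 26.4 percentage points instead of 28.5. The family sum, on a per-length scale as TPM (reads per kilobase, scaled to the same sum in each library), was 1261 ± 33.6 in GM-CSF and 449 ± 10.9 in control libraries, 2.81-fold apart (exact permutation p = 0.1). By transcript length, Zfp36 was at 212 ± 15.6 TPM and Zfp36l2 at 163 ± 16.6 TPM in control libraries (SD, n = 3 each). The near parity there thus depends on the length used. The merged exons of Zfp36, 3470 bases, cover its whole annotated span, against 2790 bases for its longest transcript.

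**Figure D2:**
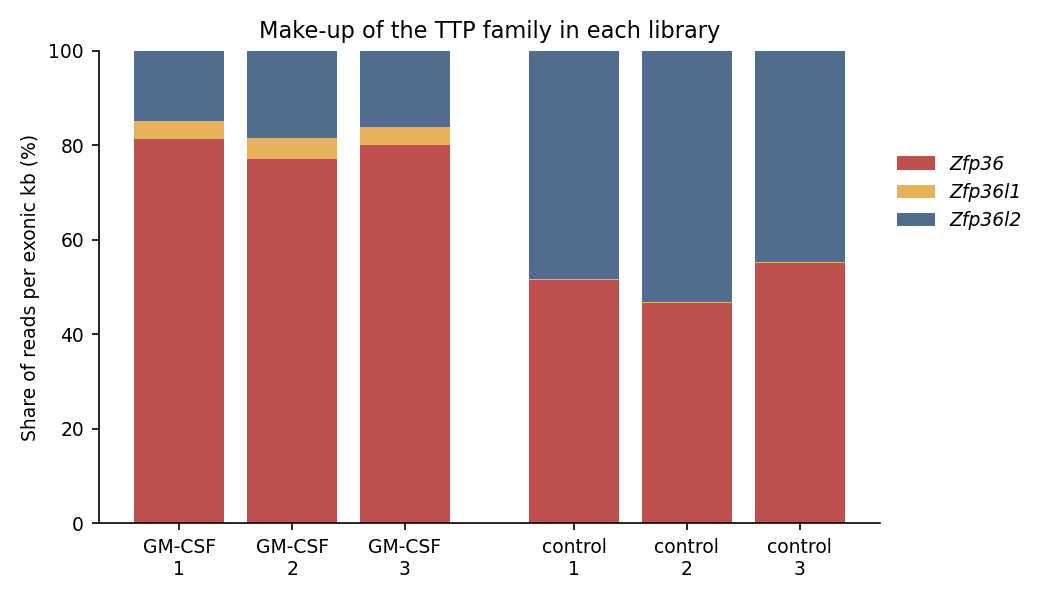
Share of Zfp36, Zfp36l1 and Zfp36l2 in their sum of reads per kilobase of merged exons, in percent, for each of the 3 GM-CSF libraries (left) and 3 control libraries (right). Zfp36 takes 77.1% to 81.2% in GM-CSF libraries and 46.5% to 55.0% in control libraries.

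A ratio of a pair of genes within a library needs no scaling between libraries, so it tests directly whether relatives changed by different amounts. The log2 ratio of Zfp36 to Zfp36l2 reads was 2.25 ± 0.195 in GM-CSF and 0.04 ± 0.249 in control libraries (SD, n = 3 each), and that of Zfp36l1 to Zfp36l2 was -2.24 ± 0.0763 in GM-CSF and -7.54 ± 0.527 in control libraries. Zfp36 to Zfp36l1 stood at 4.49 ± 0.161 in GM-CSF and 7.59 ± 0.279 in control libraries. In these 3 pairs, as for Btg2 to Btg1 below, the groups did not overlap and the exact two-sided permutation p was 0.1, or 0.125 adjusted over the 5 pairs compared, which cannot pass 0.05 at this size.

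On GRCm38, Zfp36 lies on chromosome 7 at 28376784 to 28380253, Zfp36l1 on chromosome 12 at 80107754 to 80113013 and Zfp36l2 on chromosome 17 at 84183931 to 84187947, all on the minus strand and protein-coding. Each is overlapped on the plus strand by an annotated non-coding gene (Gm44710, Gm26669 and AC132455.1). The use of strand in the counting is not given in the sources used here, so reads of the sense and antisense transcripts cannot be told apart.

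The promoter of Zfp36 is shown because this abundant member had nearly the same level in each GM-CSF library, and those of Zfp36l1 and Btg2 for comparison with the largest rise and with a smaller one. The 250 bases before the RefSeq start site (GRCm38.p6) were searched on both strands for a CArG box, an NF-kB site, the STAT motif TTCNNNGAA, the EGR motif GCGNGGGCG, the CRE TGACGTCA and the AP-1 motif TGANTCA; capitals mark matches.
Zfp36 (chr7:28379229-28379478, minus strand): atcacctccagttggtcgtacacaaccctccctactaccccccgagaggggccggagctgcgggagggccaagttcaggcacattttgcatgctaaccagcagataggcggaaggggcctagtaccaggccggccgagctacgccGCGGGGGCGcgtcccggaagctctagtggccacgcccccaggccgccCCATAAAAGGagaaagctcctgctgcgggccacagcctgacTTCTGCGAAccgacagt
Zfp36l1 (chr12:80113014-80113263, minus strand): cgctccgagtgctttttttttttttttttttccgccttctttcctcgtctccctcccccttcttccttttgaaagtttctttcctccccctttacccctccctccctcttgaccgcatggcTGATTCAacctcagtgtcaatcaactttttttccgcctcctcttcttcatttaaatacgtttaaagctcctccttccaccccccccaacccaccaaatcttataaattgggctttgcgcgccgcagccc
Btg2 (chr1:134079156-134079405, minus strand): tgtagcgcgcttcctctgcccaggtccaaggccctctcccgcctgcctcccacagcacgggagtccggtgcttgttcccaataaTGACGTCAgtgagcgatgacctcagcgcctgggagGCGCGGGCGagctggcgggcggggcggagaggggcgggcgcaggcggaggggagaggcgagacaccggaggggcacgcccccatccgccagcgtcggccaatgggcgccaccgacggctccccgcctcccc
In the Zfp36 window, an EGR match stood at -105 to -97, a CArG box at -58 to -49 and a STAT match at -17 to -9 from the start site. Over 32851 promoter windows of this length, 4.70% held an EGR match, 1.47% a CArG box and 7.02% a STAT match; over 11442 windows of tested genes the shares were 8.55%, 1.14% and 6.09%. The Btg2 window held a CRE (1.55% of all windows and 2.60% of those of tested genes) at -166 to -159 and an EGR match at -131 to -123, and the Zfp36l1 window an AP-1 match (6.75% of all windows and 4.45% of those of tested genes) at -129 to -123. Besides these, Rc3h1 had an AP-1 match at -133 to -127. The windows of Zc3h12a, Zc3h12c, Elavl1 and Btg1 held none of these letters; Zfp36l2 was not searched.

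Both Zc3h12a and Zc3h12c rose, at low levels. Zc3h12a, which encodes Regnase-1, had 23.2, 24.1 and 15.7 CPM in GM-CSF libraries, against 11.0, 9.12 and 10.01 CPM in control libraries (log2 fold change 1.07 ± 0.17, edgeR adjusted p = 0.000282). GM-CSF replicate 3 was lower than the other GM-CSF libraries, and the log2 fold change was 1.25 without it. Zc3h12c had 161, 194 and 198 reads in GM-CSF libraries (9.59, 11.7 and 9.22 CPM), against 94, 129 and 78 reads in control libraries (3.92, 5.11 and 3.75 CPM; log2 fold change 1.25 ± 0.19, edgeR adjusted p = 0.000131). The log2 ratio of Zc3h12a to Zc3h12c reads was 1.03 ± 0.257 in GM-CSF and 1.25 ± 0.359 in control libraries (SD, n = 3 each), with overlapping groups and a difference of -0.22 (exact two-sided permutation p = 0.4). Zc3h12a lies on chromosome 4 at 125118423 to 125127840 and Zc3h12c on chromosome 9 at 52111344 to 52168572, both on the minus strand and protein-coding; Mir6244, which overlaps Zc3h12c, had 0 reads in all 6 libraries.

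Rc3h1 and Elavl1 had the smallest rises. Rc3h1, which encodes Roquin-1, had 35.3, 35.1 and 28.9 CPM in GM-CSF libraries, against 20.5, 20.1 and 20.2 CPM in control libraries. The control libraries were nearly equal, and GM-CSF replicate 3 was again the lowest GM-CSF library (log2 fold change 0.71 ± 0.11, edgeR adjusted p = 0.000211). Elavl1, which encodes the message-stabilising protein HuR, had 197, 202 and 190.2 CPM in GM-CSF libraries, against 143, 132 and 138 CPM in control libraries (log2 fold change 0.52 ± 0.07, edgeR adjusted p = 6.20e-05). The stabiliser thus rose along with most of the destabilisers, by less than Zfp36, Zfp36l1 or Btg1, though that difference between genes was not tested. Rc3h1 lies on chromosome 1 at 160906418 to 160974978 on the plus strand, where Gm37052, Gm37809 and Gm37653 overlap it on the same strand so that their reads cannot be told apart, and Elavl1 on chromosome 8 at 4285382 to 4325413 on the minus strand; Elavl1 overlaps Ccl25 on the other strand, which had 41 to 59 reads in GM-CSF and 88 to 107 reads in control libraries, against at least 2872 for Elavl1.

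Both BTG genes rose, Btg1 by the larger fold. Btg1 had 1134, 1006 and 1003 CPM in GM-CSF libraries, against 286, 298 and 253 CPM in control libraries (log2 fold change 1.92 ± 0.09, edgeR adjusted p = 2.62e-08). Its 3.76-fold rise was close to the 3.88-fold rise of Zfp36. Btg2 had 451, 408 and 428 CPM in GM-CSF libraries, against 251, 241 and 228 CPM in control libraries, a 1.79-fold difference (log2 fold change 0.85 ± 0.08, edgeR adjusted p = 3.24e-06). The log2 ratio of Btg2 to Btg1 reads was -1.29 ± 0.0517 in GM-CSF and -0.21 ± 0.0807 in control libraries (SD, n = 3 each), a difference of -1.07 with no overlap. Btg1 lies on chromosome 10 at 96617006 to 96622809 on the plus strand and Btg2 on chromosome 1 at 134075170 to 134079120 on the minus strand, with no annotated gene overlapping either.

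**Figure D3:**
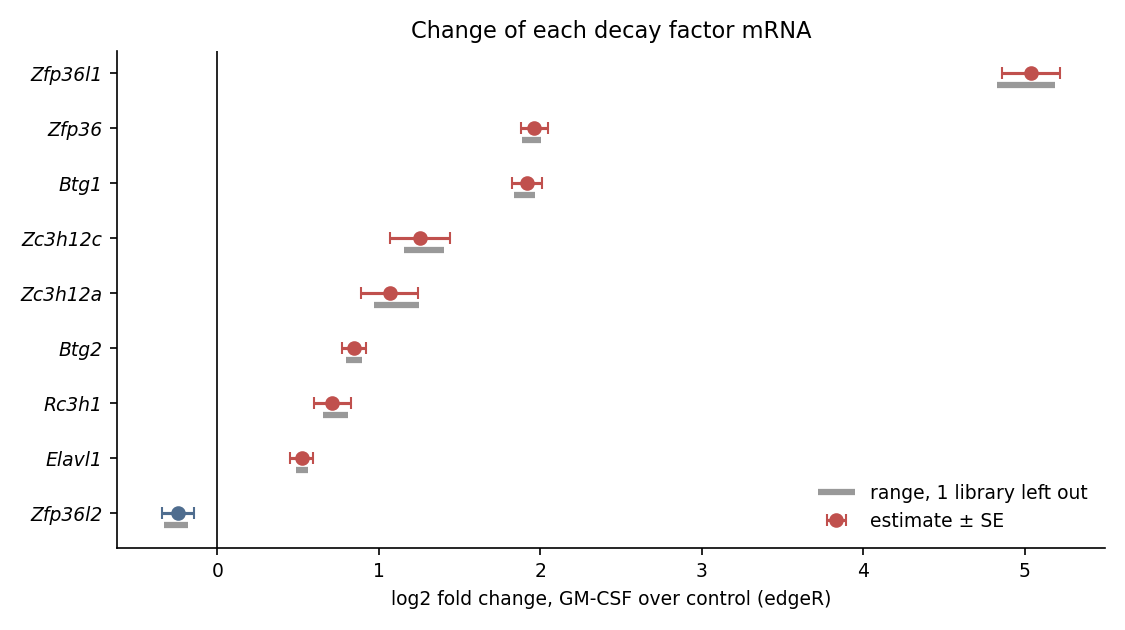
Log2 fold change of each decay factor mRNA, GM-CSF over control, as points with standard errors derived from edgeR's F statistic. Grey bars give the range when 1 library is left out. The estimates run from -0.24 for Zfp36l2 to 5.04 for Zfp36l1, and no bar crosses 0.

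Levels were compared between genes per length, as TPM over merged exons. In GM-CSF libraries the order was Zfp36 (1002 ± 23.9 TPM), Btg1 (605 ± 44.6), Btg2 (477 ± 23.5), Zfp36l2 (208 ± 26.5), Elavl1 (57.8 ± 2.21), Zfp36l1 (51.9 ± 5.83), Zc3h12a (22.2 ± 5.08), Rc3h1 (8.92 ± 1.04) and Zc3h12c (4.52 ± 0.616; SD, n = 3 each). Elavl1 was above Zfp36l1 in each GM-CSF library (58.2, 59.8 and 55.4 TPM for Elavl1 and 49.9, 58.5 and 47.4 TPM for Zfp36l1), although their ranges overlapped. In control libraries Btg2 (236 ± 12.3 TPM), Zfp36 (229 ± 16.7) and Zfp36l2 (219 ± 22.4) lay within their spread of each other, followed by Btg1 (143 ± 14.02), Elavl1 (35.8 ± 0.896), Zc3h12a (9.39 ± 0.741) and Rc3h1 (4.84 ± 0.0677). Zc3h12c (1.68 ± 0.328) and Zfp36l1 (1.41 ± 0.353) came last and overlapped. Among 11286 tested genes with a length, Zfp36 ranked 129 from the top in GM-CSF and 591 in control libraries, and Zfp36l1 ranked 3027 in GM-CSF and 9865 in control libraries. The order depends on the length used. The merged exons of Elavl1 span 10363 bases and its longest protein-coding transcript 5743 bases. By the transcript, Elavl1 had 75.4 ± 2.95 TPM and Zfp36l1 37.5 ± 4.25 TPM in GM-CSF libraries. In control libraries Zfp36 (212 ± 15.6) then lay above Btg2 (176 ± 9.26) and Zfp36l2 (163 ± 16.6).

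The genes with the profiles most like those of Zfp36l1 and Zfp36l2 were taken by the root mean square difference of centred log2(CPM + 0.5) over the 6 libraries, among 8312 other tested genes whose mean log2 CPM reached 3. Nearest to Zfp36l1 were Lta, which encodes lymphotoxin alpha (difference 0.157; log2 fold change 6.91), Bcl2a1a, a BCL2 family survival gene (0.158; 5.09), and Ifitm1, an interferon-inducible membrane protein gene (0.165; 4.80). Bcl2a1a has near-identical copies, so its count is uncertain, and the added 0.5 CPM lowers the apparent change of genes near 0 such as Lta. Nearest to Zfp36l2 were Mtif2 (0.0508), a mitochondrial translation factor gene, Tmem230 (0.0534) and Fam49a (0.0540), none of which passed the test (edgeR adjusted p = 0.130, 0.0797 and 0.141), though all 3 did with upper quartile scaling (0.0295, 0.0117 and 0.0220).

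The decay factors recruit general decay machinery, whose deadenylase list was called no more often than all genes. Of 14 genes listed under deadenylases and their complexes, 5 rose (Cnot3, Cnot6, Cnot7, Rqcd1 and Ccrn4l) and 3 fell (Cnot8, Pan2 and Parn). The other 6 did not pass the test, and the median log2 fold change was 0.15. That is 35.7% higher and 57.1% called, against 32.8% and 64.0% of all tested genes. Cnot7, a catalytic subunit of CCR4-NOT that BTG proteins bind, had 99.5 ± 6.22 CPM in GM-CSF and 51.8 ± 0.212 CPM in control libraries (SD, n = 3 each; 0.95 ± 0.08), whereas its paralog Cnot8 was at -0.21, a call lost without GM-CSF replicate 2 or control replicate 1 or 3. Ccrn4l, which encodes nocturnin and is counted here by its listing alone, rose by 1.35 ± 0.12. Pan2, part of the PAN2-PAN3 deadenylase, fell by 0.74 on the log2 scale. All 3 tested genes of the other BTG and TOB adaptors rose. Among them Btg3 had 8.88, 9.97 and 13.04 CPM in GM-CSF libraries, against 1.17, 1.43 and 1.15 CPM in control libraries (3.09 ± 0.23), with no overlap between groups, Tob2 was at 0.52 and Tob1 at 0.40. The Tob1 call was lost with upper quartile scaling and without any single one of GM-CSF replicates 1 and 2 and control replicates 1, 2 and 3.

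Genes of the later steps of decay are given beside the 32.8% higher and 31.2% lower of all tested genes. Of 18 decapping and 5′ decay genes, 9 rose, 2 fell (Lsm6 and Xrn1) and 7 did not pass (median 0.29), so that 61.1% were called against 64.0% of all genes; with upper quartile scaling 5 rose and 4 fell, where 27.8% of all genes rose and 36.8% fell. Ddx6, a helicase of the decapping complex, had 114 ± 7.83 CPM in GM-CSF and 64.9 ± 2.33 CPM in control libraries (0.82 ± 0.08); the decapping co-factor gene Dcp1a rose by 0.54 and Lsm5 by 0.52, the last call being lost with upper quartile scaling and without GM-CSF replicate 3 or control replicate 2 or 3. Xrn1, the 5′ exonuclease, was at -0.52 and Lsm6 at -0.19, where the Lsm6 call was lost without any single library other than control replicate 2 and with no filter on low counts. Of 16 RNA exosome and SKI complex genes, 12 rose (75.0%) and 2 fell (Exosc5 and Dis3l; 12.5%), with a median of 0.46. The exosome nuclease gene Dis3 had 42.0 ± 4.91 CPM in GM-CSF and 15.9 ± 0.973 CPM in control libraries (1.41 ± 0.12), and its core subunits Exosc2 and Exosc6 rose by 1.15 and 1.01. Of 10 nonsense-mediated decay genes, 4 rose, among them Smg6 by 0.80, Smg8 by 0.58 and Upf1 by 0.30, and 6 did not pass; 40.0% higher is near the share of all genes, and 40.0% called is below it. In edgeR's fit 0 fell, also 0 at an unadjusted p under 0.05, and 0 with DESeq2 or limma-voom; the Upf1 call was lost with upper quartile scaling (0.18).

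Most other binders of AU-rich elements and stem-loops rose, while a Regnase relative fell by a large fold. Of 18 tested, 11 rose, 3 fell (Zc3h12d, Tia1 and Celf2) and 4 did not pass (median 0.45), or 61.1% higher against 32.8% of all tested genes; with upper quartile scaling 7 rose, where 27.8% of all genes did. Zc3h12d, a relative of Zc3h12a known mainly from lymphocytes, had 2.26, 2.04 and 1.02 CPM in GM-CSF libraries, against 33.05, 28.3 and 25.7 CPM in control libraries, a log2 fold change of -4.05 ± 0.24 (edgeR adjusted p = 1.14e-07). It thus went the other way from Zc3h12a and Zc3h12c, with no overlap between groups; the B cell markers summed to 34.7 to 43.3 CPM in GM-CSF and 62.1 to 71.5 CPM in control libraries, and their part in it was not tested. Rc3h2, which encodes Roquin-2, rose by 1.09 ± 0.16 (30.02 ± 4.80 CPM in GM-CSF and 14.1 ± 2.32 CPM in control libraries) and Pcbp1, a poly(C)-binding protein gene, by 1.01 ± 0.11. The 5 genes not tested for low counts were Zfp36l3, Zc3h12b, Elavl2, Elavl3 and Elavl4.

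Genes for proteins that control tristetraprolin, Regnase-1 and Roquin moved in both directions. Of 22 tested, 12 rose, 4 fell (Mapk14, Map2k6, Ikbkb and Ikbke) and 6 did not pass (median 0.32). That is 54.5% higher, 18.2% lower and 72.7% called, against 32.8%, 31.2% and 64.0% of all tested genes. Map2k3 and Map2k6 encode a pair of kinases that both activate p38. Map2k3 had 816 ± 76.5 CPM in GM-CSF and 224 ± 2.28 CPM in control libraries (1.87 ± 0.09), while Map2k6 had 0.596, 0.541 and 0.606 CPM in GM-CSF libraries, against 12.04, 10.7 and 10.3 CPM in control libraries (-4.22 ± 0.22). Mapk14, which encodes p38 alpha, was at -1.06 ± 0.08; of the kinases below it that phosphorylate tristetraprolin, Mapkapk3 rose by 1.11 ± 0.07 and Mapkapk2 was at 0.29 ± 0.12 without passing (edgeR adjusted p = 0.0571, ranging from 0.000374 without GM-CSF replicate 1 to 0.239 with upper quartile scaling). Malt1, the protease that cleaves Regnase-1 and Roquin-1, had 444, 457 and 435 CPM in GM-CSF libraries, against 79.0, 75.8 and 70.2 CPM in control libraries (2.58 ± 0.08). Ikbkb was at -0.77 and Ikbke at -0.32, a call lost without GM-CSF replicate 1 or 2 or control replicate 1 or 3.

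**Figure D4:**
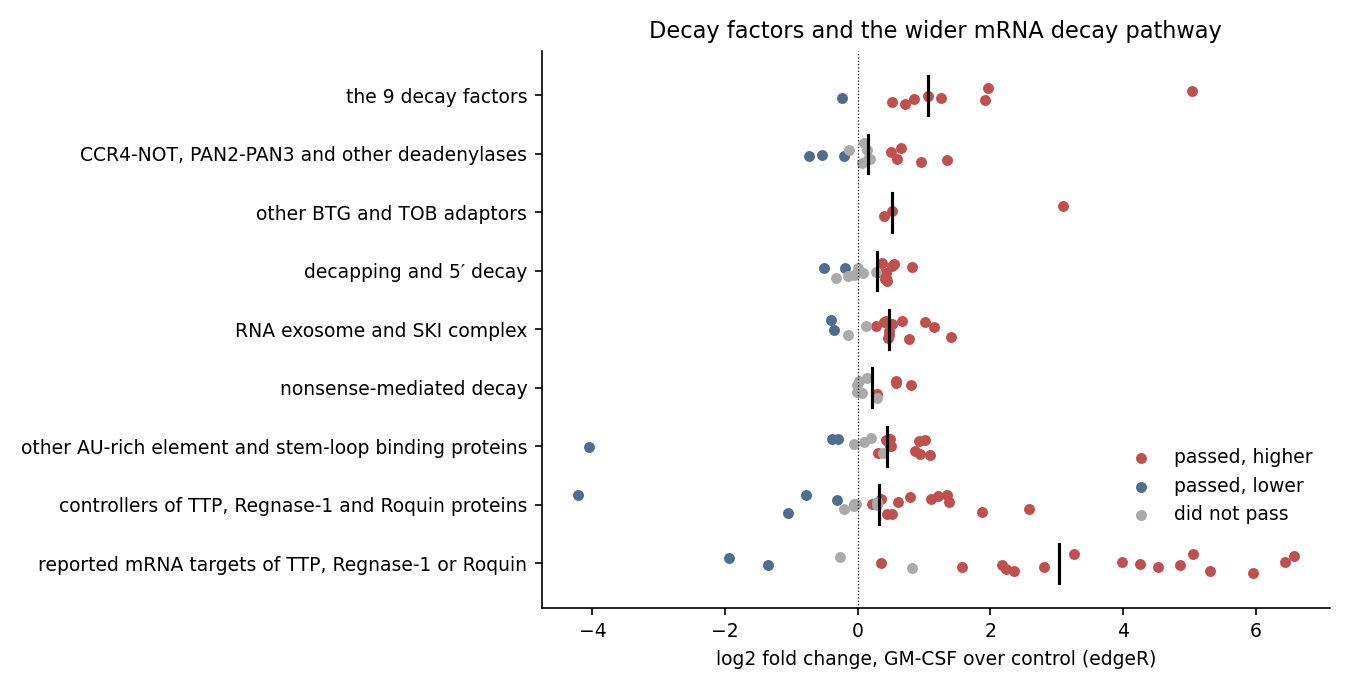
Log2 fold change, GM-CSF over control, of each tested gene of the 9 decay factors and of 8 lists of the wider mRNA decay pathway; red points passed the test and were higher, blue passed and were lower, grey did not pass, and black bars are medians. The median is 1.07 for the decay factors, 3.03 for the reported target messages and 0.15 to 0.52 for the other lists.

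Messages reported to be targets of these factors were mostly higher, together with the factors. Of 26 listed, 20 were tested, of which 16 rose, 2 fell (Fos and Lcn2) and 2 did not pass, with a median of 3.03. Among all tested genes 32.8% were higher and 31.2% lower, so that 64.0% were called. The list was chosen with earlier results of these data known, and many of its genes are also genes that inflammatory signals induce. Ier3, an immediate early gene that tristetraprolin is known to restrain, had 1006 ± 107 CPM in GM-CSF and 10.6 ± 2.97 CPM in control libraries (6.58 ± 0.20), the largest change of the list, followed by Il1b and Il6. Tfrc, which encodes the transferrin receptor and is a known Regnase-1 target, had 81.8 ± 2.79 CPM in GM-CSF and 18.2 ± 3.27 CPM in control libraries (2.18 ± 0.12). Csf2, the gene of GM-CSF itself and a known tristetraprolin target, had 0 reads in all 6 libraries, which allows up to 0.180 CPM in GM-CSF and 0.144 CPM in control libraries at a limit of 3 reads per library, a limit that covers counting error only.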

How the data were processed

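The tools named in the submitters' processing notes are STAR 2.5.2a, Trim Galore 0.4.4, edgeR and HTSeq 0.6.1p1, with mm10 as the build and no role stated for any of them. Neither the annotation nor whether counting used strand is given in those notes. The authors deposited raw counts of reads for each gene symbol; the 6 columns were matched to samples by title. Rows that name no gene held 28.8% to 30.6% of counted reads per library and were left out.

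The deposited counts went into edgeR 4.0.16 under R 4.3.3 (TMM, filterByExpr at min.count 10 and min.total.count 15, glmQLFit and glmQLFTest, two-sided, group as the only term), which left 11731 genes. CPM uses the total of gene counts. Lengths, positions and 3′ untranslated regions came from GENCODE M21 (GRCm38, the assembly that mm10 denotes), with 23334 symbols matched, and promoters from RefSeq. The 9 genes were given by name, and the members, lists and markers were chosen with earlier results of these data known. From each list the text names up to 3 genes, those that passed the test with the largest absolute change and had a mean log2 CPM of 1 or more, except 1 gene that is not reported here; others were named after their values were seen, where 5 or fewer moved one way or for their role. Paralog ratios and shares were compared by exact permutation tests in scipy 1.17.1. Alternatives were other scalings, filters, a robust prior, the DESeq2 1.42.0 Wald test, limma-voom 3.58.1, a replicate block, removal of the 10 most abundant genes, and each library left out; the transcript length was chosen after seeing the data. The fit was tested on simulated data.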

Additional observations from a re-analysis of the deposited data

How the results depend on the processing

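The 8 decay factor genes that rose kept their direction and an adjusted p under 0.05 in all 16 alternatives: Zfp36 at 1.84 to 2.00, Zfp36l1 at 4.83 to 5.19, Zc3h12a at 0.95 to 1.25, Zc3h12c at 1.14 to 1.40, Rc3h1 at 0.60 to 0.81, Elavl1 at 0.40 to 0.56, Btg1 at 1.80 to 1.96 and Btg2 at 0.73 to 0.89. Zfp36l2 stayed below 0 (-0.36 to -0.18) and was called in 12 of the 16, so that the number of decay factors lower was 0 to 1 when 1 library was left out. With upper quartile scaling, the decapping list had 5 genes higher and 4 lower and the AU-rich element and stem-loop binders 7 higher; with no filter the decapping list had 1 lower, and 1 to 2 lower when a library was left out. The cause was not tested. Paralog ratios and family shares kept their sign in all alternatives. With a library left out, 1 group has 2 samples. Whether the replicate numbers pair the libraries could not be told from so few libraries. Deviations from the group means correlated at 0.00384 to 0.0731 between same-numbered libraries, the highest for the libraries numbered 1. Between the others they correlated at -0.0467 to 0.0304. With the replicate block, 7493 genes were called instead of 7511, Zfp36l2 stayed lower (-0.24, adjusted p = 0.0186) and 8 decay factors rose; GM-CSF replicate 2 correlated best with control replicate 3, not with its own number. The block changed the call of 1 named gene, Mapkapk2, which passed at 0.27. Among the 9 decay factors, the lowest counts limit Zfp36l1 in control libraries (28 to 40 reads) and Zc3h12c (78 to 198 reads). Some other named genes also had low counts. Map2k6 had 10, 9 and 13 reads in GM-CSF libraries. In control libraries Btg3 had 28, 36 and 24 reads and Il6 had 3, 4 and 7 reads.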

Other observations

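The 7-base core TATTTAT, which the TTP family binds, was counted in the 3′ untranslated regions of all 10813 tested genes with such a region, a step added after seeing the data and given as a description with no test. Of the 7605 genes with 0 cores, 30.3% were higher and 33.9% lower in GM-CSF libraries (median log2 fold change -0.05). Of the 417 genes with 3 or more, among them Zfp36, Zfp36l1, Zfp36l2 and Elavl1, 49.6% were higher and 19.2% lower (median 0.31), and 24.7% rose at least 2-fold against 10.3% of the genes without a core. Genes with 1 or 2 cores lay between, with 41.1% and 41.0% higher. Regions with more cores were also longer, with a median of 3290 bases against 811, and richer in A and T (59.7% against 54.1%). Among regions at or under the median length of 1112 bases, 57.1% of the 35 genes with 3 or more cores and 27.2% of the 4669 without were higher; among longer regions, 49.0% of 382 and 35.2% of 2936 were. Within both length classes, regions with 3 or more cores were still longer than those without. Their median was 771 against 425 bases among regions at or under 1112 bases, and 3467 against 1962 bases among longer regions. The split therefore does not hold length constant. The parts of length and base composition in this were not tested.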
